A study of Mus musculus with 8 samples.

Results

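The Gimap genes encode GTPases of the immunity-associated protein family, and their expression was described here in regulatory T (Treg) cells with 2 or with 1 floxed copy of Bcl11b, a gene for a zinc finger protein that regulates transcription in T cells. The members were taken by symbol, namely Gimap1, Gimap3, Gimap4, Gimap5, Gimap6, Gimap7, Gimap8 and Gimap9, which are 8 of the 23997 genes in the deposited expression table and all of its Gimap symbols. All 8 passed the filter of a mean of at least 1 FPKM (fragments scaled to transcript length and to library size). RNA sequencing was done on CD4+YFP+ cells of C57BL/6 mice, sorted at a stated purity above 97% from draining lymph nodes and spleen. Bcl11b-deficient cells (4 samples, labelled Het_KO_Treg) had the genotype Bcl11b f/f Foxp3-YFP-Cre/+, and Bcl11b-sufficient cells (4 samples, labelled Het_WT_Treg) had the genotype Bcl11b f/+ Foxp3-YFP-Cre/+. Both groups therefore carried 1 Foxp3-YFP-Cre allele, in which Foxp3 drives the marker YFP and the recombinase Cre, and the deficient cells carried 2 floxed Bcl11b copies, against 1 in the sufficient cells, which are heterozygous for the floxed allele. The comparison asked how Treg gene expression differs with Bcl11b deficiency.

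Gimap proteins are small GTP-binding proteins expressed mainly in lymphocytes, most of them anchored to intracellular membranes such as those of the endoplasmic reticulum, Golgi and lysosomes. The family is known for lymphocyte survival and homeostasis: loss of Gimap5 causes T cell lymphopenia in the rat and in the mouse, and Gimap1 is needed for mature T and B cells in the mouse. Some members were reported to bind Bcl2 family proteins, and Gimap6 binds Gabarapl2, a protein of autophagosome membranes.

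The 8 genes lie side by side on chromosome 6 between 48647234 and 48770851, a span of 124 kb in the GENCODE M21 annotation of GRCm38, the assembly that the name mm10 denotes. Gimap8, Gimap9, Gimap4, Gimap7, Gimap1 and Gimap5 are on the plus strand, and Gimap6 and Gimap3 on the minus strand. The promoter sequences shown are those of Gimap5 and Gimap6, the members whose libraries did not overlap between the groups, and that of Gimap3, the closest relative of Gimap5 among the measured genes. Each line gives the 250 bases before the start site, read 5′ to 3′ along the gene's strand, from RefSeq on GRCm38.p6. Capitals mark matches, on either strand, to the motifs searched. These were CGGAAG for Ets factors, TGTGGT for Runx factors, GTAAACA for Foxo factors, AGATAA for Gata factors and TGACCA, which was described for Bcl11a and Bcl11b. No match of one motif overlapped a match of another in the lines shown.
Gimap5, chr6:48745947-48746196, plus strand: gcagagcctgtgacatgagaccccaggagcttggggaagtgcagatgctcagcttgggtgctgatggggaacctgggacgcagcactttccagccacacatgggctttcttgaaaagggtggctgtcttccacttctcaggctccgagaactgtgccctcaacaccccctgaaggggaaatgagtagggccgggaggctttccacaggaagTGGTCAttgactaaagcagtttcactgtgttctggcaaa
Gimap6, chr6:48708245-48708494, minus strand: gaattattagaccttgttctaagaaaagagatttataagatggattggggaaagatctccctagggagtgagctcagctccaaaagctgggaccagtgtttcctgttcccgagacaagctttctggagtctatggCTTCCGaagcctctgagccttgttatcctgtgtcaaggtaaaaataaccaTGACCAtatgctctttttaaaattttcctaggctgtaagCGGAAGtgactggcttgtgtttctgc
Gimap3, chr6:48770852-48771101, minus strand: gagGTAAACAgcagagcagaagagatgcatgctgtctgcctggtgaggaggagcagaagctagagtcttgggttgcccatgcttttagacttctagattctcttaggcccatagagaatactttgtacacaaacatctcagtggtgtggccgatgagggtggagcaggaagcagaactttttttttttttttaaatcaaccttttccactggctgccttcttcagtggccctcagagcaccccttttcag

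The search window ran on for 50 bases past the start site, and the family had 9 windows, 2 of them for Gimap8. TGACCA occurred in 2 of the 9, those of Gimap5 and Gimap6, and in 13.6% of all 32851 promoter windows of the same length. CGGAAG occurred in 4 of 9 (16.9% of all), at 3 genes, since the windows of Gimap8 overlap and hold the same match. TGTGGT occurred in 3 of 9 (16.8%), GTAAACA in 1 of 9 (3.65%) and AGATAA in 0 of 9 (11.2%). In the Gimap5 window the match lies on the opposite strand to the gene, 39 bases before the start, and in the Gimap6 window on the gene's own strand, 65 bases before it. No motif searched was found in every window.

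The 8 samples were treated as 5 independent libraries. The spread between samples was 1.16 to 1.32 times their sampling noise in 3 pairs, namely replicate 1 with 3 and 2 with 4 in deficient cells and replicate 1 with 3 in sufficient cells. In the 9 other pairs within a group it was 1.85 to 2.88 times. Each of the 3 pairs, which differed by little more than the sampling noise, was averaged and counted as 1 library, which left 2 deficient and 3 sufficient libraries. The labels list 8 samples and do not say that a library was sequenced more than once, so the merging rests on the values alone, and it decides whether members pass the test. The labels do not tie libraries to animals, and the p-values rest on the spread between libraries alone, which may be technical. Estimated depth ran from 2870000 to 12590000 fragments, and a Gimap gene had about 170 to 23160 fragments in a sample. Sufficient replicate 4 stood apart with Snora61 at 31182.5 FPKM, listed at 0 in the other samples. Bcl11b itself had 24.2, 19.3, 24.6 and 18.7 FPKM in deficient replicates, against 42.4, 46.5, 42.4 and 39.1 FPKM in sufficient replicates, so its deficient mean was 50.8% of the sufficient one (limma adjusted p = 0.0238). Foxp3, which defines the Treg lineage, ran from 148 to 157 FPKM in deficient and from 165 to 205 FPKM in sufficient samples, and Cd4 averaged 292 ± 4.33 FPKM in the deficient and 260.1 ± 15.9 FPKM in the sufficient libraries (SD, n = 2 and 3). Of the CD8 T cell markers, Cd8a was at most 0.601 FPKM in a deficient and 0.566 FPKM in a sufficient library, and Cd8b1 averaged 10.3 ± 0.334 in deficient and 13.0 ± 1.54 FPKM in sufficient libraries.

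Gimap transcripts were abundant in both groups. Over the 5 libraries the members ranked between the 88.7th percentile (Gimap7) and the 99.0th percentile (Gimap3) of the 10614 genes tested. Gimap3, Gimap4 and Gimap6 carried most of the family's signal, and together with the others they summed to 1881 ± 55.0 FPKM in the deficient and 2230 ± 339 FPKM in the sufficient libraries (SD, n = 2 and 3). As a share of all FPKM this was 0.387% and 0.391% in the deficient libraries and 0.404%, 0.367% and 0.414% in the sufficient libraries. The last, for sufficient replicate 4, was 0.437% with Snora61 left out of the total, and the groups overlapped either way. The scaling to equal totals used below kept Snora61 in the total. Samples are bulk RNA, so fewer cells of a type and less RNA per cell cannot be told apart.

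No member passed the test over the 5 merged libraries. Gimap5 and Gimap6 did with the 8 samples taken as separate, where 1851 of 10612 genes tested passed. With limma on the merged libraries, on log2(FPKM + 1) and Benjamini-Hochberg adjustment over all genes tested, 0 of 8 were called at an adjusted p under 0.05, where 2.63% of all genes were. Of all genes 1.93% (205) were called higher and 0.697% (74) lower in deficient libraries. At an unadjusted p under 0.05 there was 1 member, Gimap5, against 17.8% of all genes. Fold changes, deficient over sufficient, were negative for 7 members, of which Gimap1 and Gimap8 turned positive with libraries scaled to equal totals or to T lineage genes, and positive for Gimap5. Of all genes 52.1% had a negative one. The median over the members was -0.24 on the log2 scale, that of all genes -0.01. The libraries of the groups did not overlap for Gimap6 (deficient lower, as for 17.9% of all genes) and Gimap5 (deficient higher, as for 18.9%), and they overlapped for the other 6. Groups without overlap in either direction were found for 36.7% of all genes. Exact permutation tests of the libraries gave p from 0.2 to 0.7 for single members, in a design that cannot go below 0.1.

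**Figure D1:**
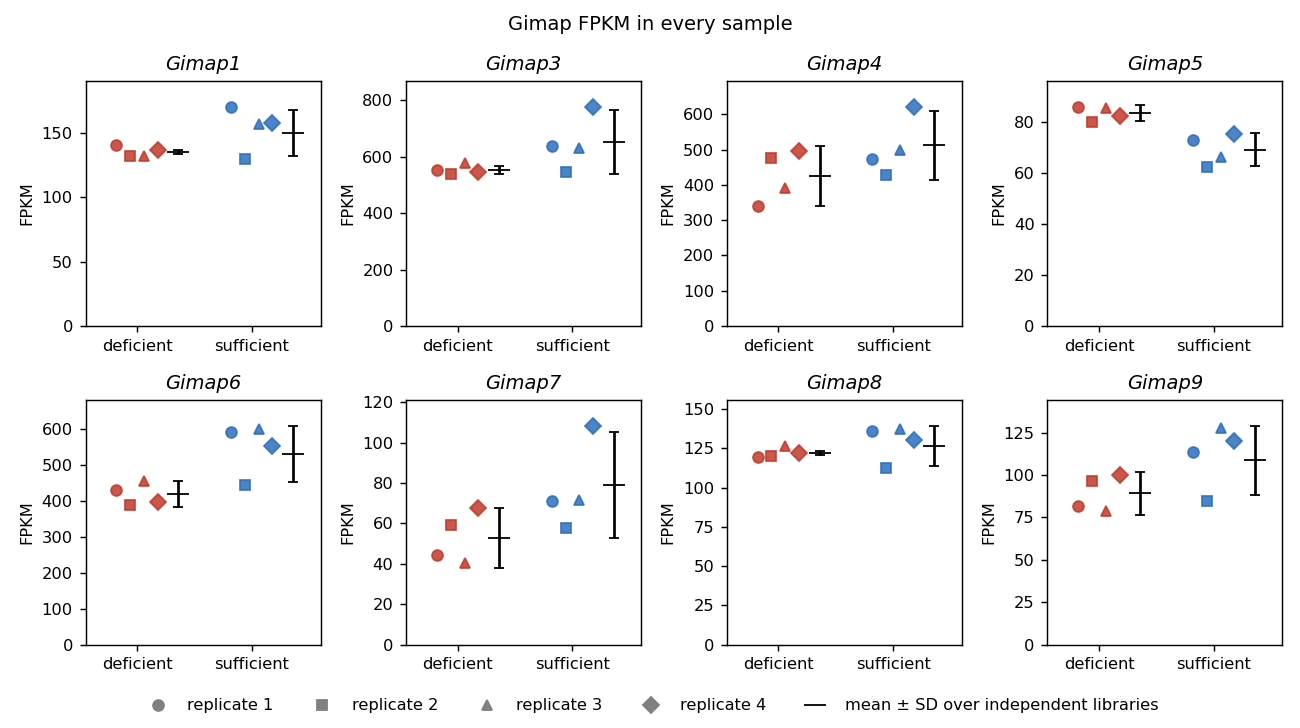
FPKM of each Gimap gene (vertical axis, from 0) in the 4 deficient and 4 sufficient samples, with a symbol for each replicate number and the mean ± SD over the 2 deficient and 3 sufficient independent libraries in black. Sufficient replicate 2 is the lowest sufficient sample for every gene, and Gimap5 is the one gene whose deficient samples, at 80.2 to 86.0 FPKM, all lie above its sufficient samples, at 62.4 to 75.3 FPKM.

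Gimap5 is the member whose loss is known to shorten T cell survival, and it acts at lysosomes. Deficient replicates 1 to 4 had 86.0, 80.2, 85.8 and 82.6 FPKM of Gimap5, and sufficient replicates 1 to 4 had 73.2, 62.4, 66.6 and 75.3 FPKM. All deficient samples were above all sufficient samples, which were counted as 5 libraries. Over these libraries 18.9% of all genes tested were likewise higher in deficient cells without overlap. The means were 83.6 ± 3.17 and 69.2 ± 6.47 FPKM (SD, n = 2 and 3), so the deficient level was 121% of the sufficient one. The log2 fold change was 0.27 (SE 0.11, 95% interval 0.00463 to 0.54), which did not pass (limma adjusted p = 0.274).

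Gimap3, whose gene lies next to Gimap5 and whose human counterpart is a pseudogene, was the most abundant member. Gimap3 had 551, 538, 577 and 547 FPKM in the 4 deficient samples, against 638, 547, 631 and 776 FPKM in the 4 sufficient samples, in replicate order. Sufficient replicate 2 lay within the deficient range and sufficient replicate 4 far above it. The log2 fold change was -0.22 (SE 0.17, 95% interval -0.62 to 0.17, limma adjusted p = 0.537), and it was -0.34 without sufficient replicate 2 and -0.09 without sufficient replicate 4. Gimap3 and Gimap5 are near-identical in places: 9.06% of the 50-base stretches of the longest coding transcript of Gimap3 also occur in Gimap5, and 9.98% of those of Gimap5 occur in Gimap3. Reads from these stretches cannot be assigned by sequence, and how the authors' counting treated them was not tested.

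Gimap6, the member that binds Gabarapl2, was lower in both deficient libraries than in any sufficient one. Deficient replicates 1 to 4 had 432, 389, 457 and 397 FPKM of Gimap6, and sufficient replicates 1 to 4 had 592, 445.5, 599.6 and 555 FPKM. As single samples deficient replicate 3 was above sufficient replicate 2, and after averaging, the nearest libraries were at 444 FPKM in deficient and 445.5 FPKM in sufficient cells. The means were 419 ± 36.2 and 532 ± 77.8 FPKM (SD, n = 2 and 3), and the log2 fold change of -0.34 (SE 0.16, 95% interval -0.71 to 0.04) did not pass (limma adjusted p = 0.328). Of its 50-base stretches 0.0639% occur in another annotated gene.

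Gimap7, described in human cells as a GTPase that becomes active when it pairs with itself or a relative, had the most negative fold change and the widest spread. Gimap7 had 44.2, 59.2, 40.4 and 67.6 FPKM in the 4 deficient samples, against 71.1, 57.8, 71.7 and 108 FPKM in the 4 sufficient samples, in replicate order. The deficient library of replicates 2 and 4 lay within the sufficient range. Its sufficient libraries differed by up to 1.88-fold, the widest range of any member. The log2 fold change was -0.55 (SE 0.28, 95% interval -1.20 to 0.10, limma adjusted p = 0.351). Leaving out sufficient replicate 4 gave -0.31. Leaving out a deficient library gave -0.27 (replicates 1 and 3 out) or -0.84 (replicates 2 and 4 out).

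Gimap4, which hastens the death of T cells in the mouse, also differed between the deficient libraries. Deficient replicates 1 to 4 had 341, 475, 391 and 496 FPKM of Gimap4, and sufficient replicates 1 to 4 had 474, 429, 499.5 and 620 FPKM. Deficient replicates 2 and 4 were within the sufficient range and replicates 1 and 3 below it. Its log2 fold change of -0.26 (SE 0.20, limma adjusted p = 0.536) was -0.12 without sufficient replicate 4. With deficient replicates 1 and 3 left out it was -0.06, and with replicates 2 and 4 left out -0.47.

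Gimap9 is little studied. Gimap9 had 81.5, 96.6, 78.7 and 99.97 FPKM in the 4 deficient samples, against 113, 84.9, 128 and 120.1 FPKM in the 4 sufficient samples, in replicate order. Sufficient replicate 2 fell inside the deficient range. The log2 fold change was -0.27 (SE 0.18, 95% interval -0.70 to 0.16, limma adjusted p = 0.491). It was -0.44 without sufficient replicate 2. Leaving out deficient replicates 1 and 3 gave -0.12, and leaving out 2 and 4 gave -0.42.

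Gimap1, needed for mature lymphocytes, and Gimap8, the largest protein of the family with several GTP-binding domains, had the most even levels. Deficient replicates 1 to 4 had 141, 132, 132 and 137 FPKM of Gimap1, and sufficient replicates 1 to 4 had 169.7, 129.6, 156 and 158 FPKM. Gimap8 had 119.6, 120.4, 126 and 122 FPKM in the 4 deficient samples, against 136, 112, 138 and 131 FPKM in the 4 sufficient samples, in replicate order. In both genes the deficient samples lay close together, and sufficient replicate 2 was below all of them. The log2 fold changes were -0.14 for Gimap1 (95% interval -0.44 to 0.16, limma adjusted p = 0.609) and -0.05 for Gimap8 (95% interval -0.33 to 0.23, limma adjusted p = 0.875). Without sufficient replicate 2 they were -0.24 and -0.13, and without sufficient replicate 4 that of Gimap8 was -0.02. With sufficient replicates 1 and 3 left out that of Gimap1 was -0.08. They were 0.07 and 0.17 with equal totals and 0.05 and 0.14 with scaling to T lineage genes, and that of Gimap8 was also positive with quantile normalization (0.04) and with sufficient replicates 1 and 3 left out (0.01).

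**Figure D2:**
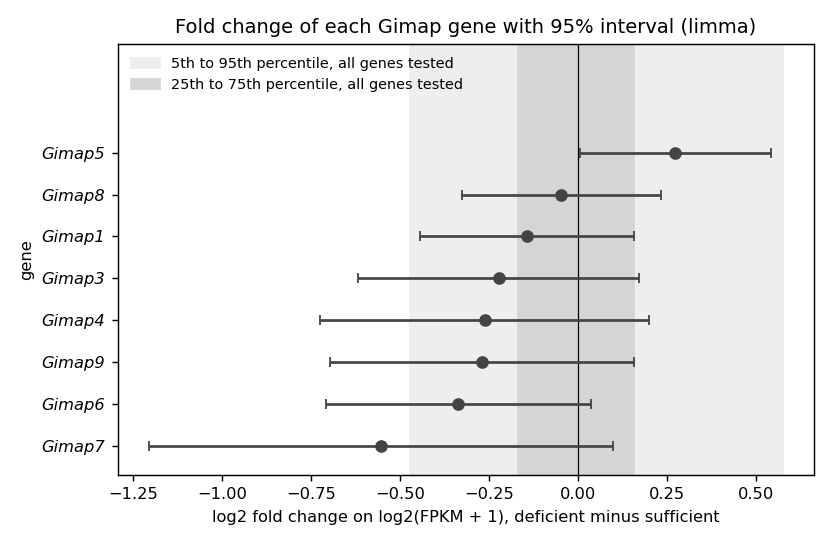
Log2 fold change of each Gimap gene (horizontal axis, deficient minus sufficient on log2(FPKM + 1)) with its 95% interval from limma, over grey bands for the percentiles of all 10614 genes tested. Gimap5 stands at 0.27 and the other 7 genes run from -0.05 to -0.55, and 7 of the 8 intervals include 0. Gimap1 and Gimap8 turn positive with equal totals or with scaling to T lineage genes.

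The FPKM of all genes, Snora61 included, summed to between 474416 and 495435 in the deficient samples. In sufficient replicates 1 to 4 the sums were 560942, 509592, 566073 and 613276. With equal totals the member median was -0.03, against -0.24 without. Sufficient replicate 2 was the lowest sufficient library for all 8 genes and had the lowest sufficient total. Without it the deficient libraries lay below the sufficient ones for 7 members, against 1 with it, while the share of all genes doing so was 27.3%, against 17.9% with it. No member was called by limma in that fit, with adjusted p between 0.144 for Gimap6 and 0.548 for Gimap8. That fit called 80 of 10608 genes tested. Without sufficient replicate 4 there was 1 member in each direction with no overlap, as for 22.0% (lower) and 25.1% (higher) of all genes. Again no member was called, where 133 of 10626 genes tested were. Leaving out deficient replicates 2 and 4 gave 4 members lower (31.7% of all genes). Leaving out deficient replicates 1 and 3 gave 2 (29.3%), and leaving out sufficient replicates 1 and 3 gave 1 (23.6%). In each of these 3 fits Gimap5 alone was higher, as were 30.2%, 29.9% and 23.2% of all genes, in the order given. Calls of members by limma appeared where near-identical columns entered as separate libraries. They were Gimap5 (0.27, adjusted p = 0.0318) and Gimap6 (-0.38, adjusted p = 0.0341) with 8 columns. With the replicate number as a block they were Gimap6 (-0.38, adjusted p = 0.0272) and Gimap7 (-0.53, adjusted p = 0.0498). Of 10612 genes tested, those fits called 1851 with 8 columns and 1418 with the block. If the near-identical samples are repeat runs, those fits count 3 libraries more than once, and if they are separate libraries, the merged fit has fewer samples than were made.

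Levels of different members can be set side by side because FPKM are scaled per length. In deficient cells the order of mean levels was Gimap3 (553 FPKM), Gimap4 (426), Gimap6 (419), Gimap1 (135), Gimap8 (122), Gimap9 (89.2), Gimap5 (83.6) and Gimap7 (52.8). In sufficient cells it was Gimap3 (653 FPKM), Gimap6 (532), Gimap4 (512), Gimap1 (150.1), Gimap8 (127), Gimap9 (109), Gimap7 (79.2) and Gimap5 (69.2). In deficient cells the library ranges overlapped between the neighbours Gimap4 and Gimap6 and between Gimap9 and Gimap5, and were apart for the other neighbours in that order. In sufficient cells every neighbour in the order overlapped the next except Gimap4 and Gimap1. Gimap1 was nonetheless above Gimap8 within every library, by 1.11-fold in both deficient libraries and by 1.16-fold to 1.21-fold in the sufficient ones.

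Ratios between members within a library do not depend on how libraries were scaled. Gimap3 over Gimap5 was 6.57 and 6.67 in the deficient libraries, against 9.08, 8.77 and 10.3 in the sufficient libraries. Gimap5 over Gimap6 was 0.193 and 0.207 in deficient, against 0.117, 0.140 and 0.136 in sufficient libraries, and Gimap5 over Gimap7 was 2.03 and 1.28, against 0.979, 1.08 and 0.694. Gimap5 thus made up a larger part of the family in deficient cells, 4.45% ± 0.299 of the summed Gimap FPKM, against 3.12% ± 0.195 in sufficient cells (SD, n = 2 and 3). All 7 ratios that hold Gimap5 separated the groups, as did 5 of the 21 others, while 38.5% of all pairs of tested genes did. The 7 share their Gimap5 values, and Gimap5 over a tested gene was higher in both deficient libraries than in any sufficient one for 49.7% of 10552 genes, so this separation is not particular to the family. Gimap8 was the other member with a share that did not overlap, 6.50% ± 0.250 in deficient and 5.72% ± 0.501 in sufficient libraries. Set against the summed Gimap FPKM in the same way, 36.7% of 10553 tested genes did not overlap.

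**Figure D3:**
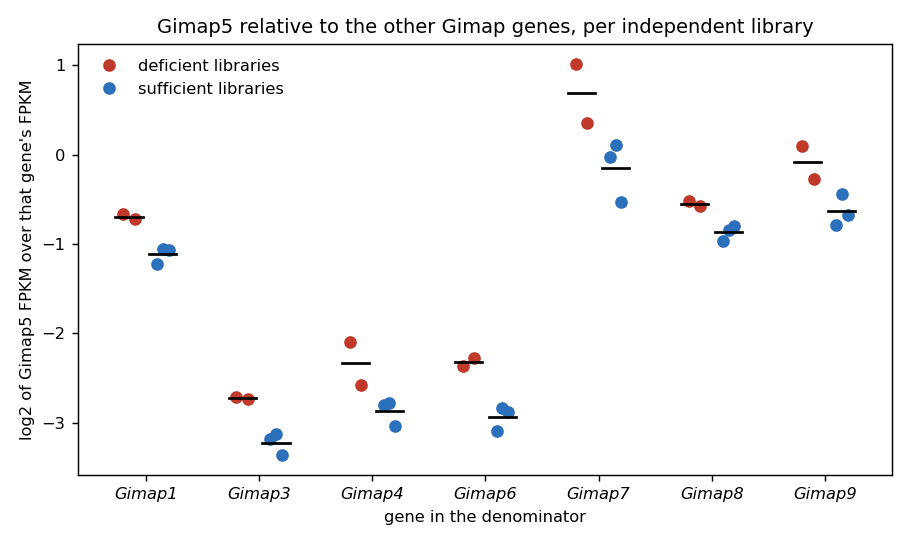
Log2 of Gimap5 FPKM over the FPKM of each other Gimap gene (vertical axis) in the 2 deficient and 3 sufficient independent libraries, with the group means as black lines. The deficient points lie above the sufficient points for all 7 genes, by 0.32 on average for Gimap8 and by 0.84 for Gimap7.

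Along the cluster, Gimap5 lies between Gimap1 and Gimap3, which both had negative values. A read-through gene, Gm28053, overlaps Gimap7, Gimap1 and Gimap5 in the annotation, is not a row of the table, and shares 2.62%, 10.3% and 5.51% of their 50-base stretches. Of the nearest protein-coding genes outside the cluster, Zfp775, a zinc finger gene, measured 2.40 ± 0.0722 in deficient and 2.31 ± 0.155 FPKM in sufficient libraries. Tmem176b, a membrane protein gene expressed in myeloid cells, measured 7.87 ± 2.68 in deficient and 6.23 ± 2.67 FPKM in sufficient libraries. Its neighbour Tmem176a measured 5.93 ± 1.88 in deficient and 4.22 ± 1.64 FPKM in sufficient libraries. None of the 3 was called (limma adjusted p = 0.929, 0.636 and 0.498). AI854703, Aoc1 and 1600015I10Rik were below the filter.

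**Figure D4:**
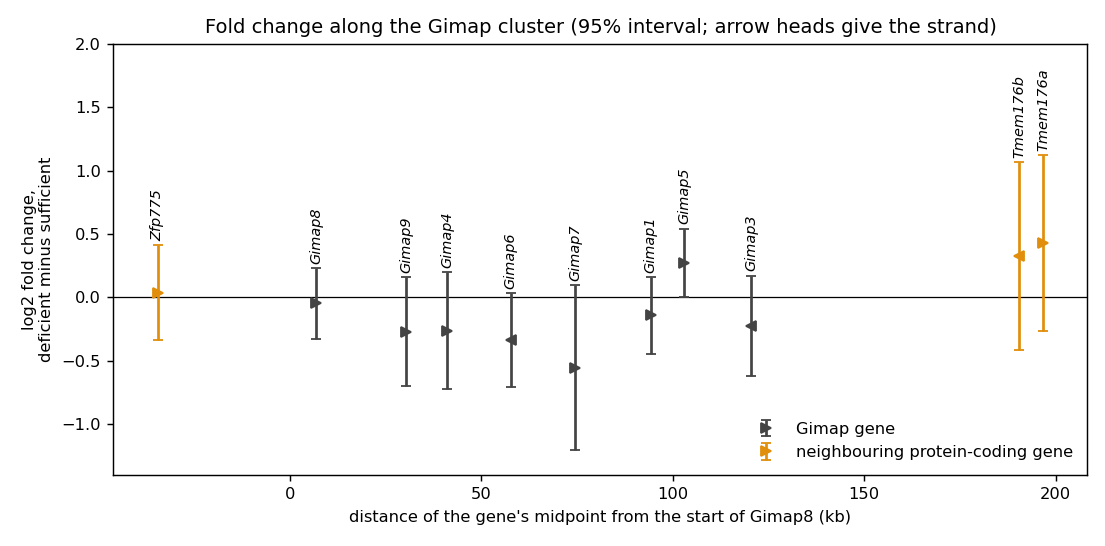
Log2 fold change (vertical axis, deficient minus sufficient, with 95% intervals from limma) against the distance in kb of each gene's midpoint from the start of Gimap8, for the 8 Gimap genes and 3 tested neighbours, with arrow heads for the strand. Values run from -0.55 for Gimap7 to 0.27 for Gimap5 inside the cluster and from 0.04 for Zfp775 to 0.43 for Tmem176a outside it.

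The family's mean profile over the 5 libraries, centred on its own mean, was -0.17 and -0.06 in the deficient libraries and 0.13, -0.17 and 0.27 in sufficient replicates 1 and 3, 2 and 4. Likeness was measured as the root mean square difference of centred log2(FPKM + 1) values over these 5 libraries. The values were not scaled to equal totals, and the part of the library totals in the likeness was not tested. Among 6557 other genes above a mean of 10 FPKM the nearest were Nfu1, an iron-sulphur cluster scaffold (0.0178), Hsd17b10, a mitochondrial dehydrogenase (0.0204), and Mrpl49, a mitochondrial ribosomal protein (0.0242). Next came Arpc5l, an actin-nucleating complex subunit (0.0275), Mbd2, a reader of DNA methylation (0.0277), and Rexo4 (0.0302), and the median candidate was at 0.197. Within the family Gimap3 (0.0834) and Gimap1 (0.0934) were nearest to the mean of the other members, and Gimap7 (0.323) and Gimap5 (0.279) farthest.

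Genes listed for autophagy or for a reported link to Gimap proteins also gave no calls, where 2.63% of all genes tested were called. Of 16 genes of the Gabarap and autophagy list, with the Gsk3 kinases and beta-catenin that Gimap5 studies have linked to the family, 0 were called by limma in either direction, and the median log2 fold change was -0.11, against -0.01 for all genes. The lowest adjusted p were those of Ctnnb1, which encodes beta-catenin, at 101 ± 11.1 in deficient and 81.5 ± 5.90 FPKM in sufficient libraries (adjusted p = 0.252), and Map1lc3b, an autophagosome protein, at 85.9 ± 8.32 and 102 ± 9.67 FPKM (adjusted p = 0.364).

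Of 13 tested Bcl2 family genes, the regulators of mitochondrial cell death, 0 were called by limma (2.63% of all genes were), with a median of -0.12. Bcl2a1b, a survival protein with near-identical copies in the mouse, measured 40.3 ± 6.06 in deficient and 71.2 ± 13.0 FPKM in sufficient libraries (adjusted p = 0.0711). Pmaip1, a death-promoting member, measured 3.41 ± 1.09 and 11.0 ± 5.04 FPKM (adjusted p = 0.127). In the list of lymphocyte quiescence and homeostasis 0 of 22 were higher (1.93% of all genes) and 1 was lower (0.697%), with a median of 0.0025. That gene was Ccr7, a lymph node homing receptor, which fell to 144 ± 0.228 FPKM in deficient, against 262 ± 49.2 FPKM in sufficient libraries (log2 fold change -0.84, SE 0.16, limma adjusted p = 0.0464). The Ccr7 call held under 9 of 22 alternatives, among them both fits of 8 separate columns, with adjusted p from 0.00165 to 0.257, and was lost without sufficient replicate 2 (0.0639), without sufficient replicate 4 (0.103), without deficient replicate 2 (0.0538), without deficient replicate 3 (0.0510) and without either whole deficient library (0.257 and 0.238). It was also lost with equal totals (0.138), no filter (0.119), quantile normalization (0.111), scaling to T lineage genes (0.0880), no variance trend (0.0655), a pseudocount of 0.1 (0.0553) and a block of odd and even replicate numbers (0.0525).

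Lineage markers were measured in the same libraries, where 1.93% of all genes tested were called higher and 0.697% lower in deficient cells. Of 15 genes common to T cells 0 were called, with a median of -0.18 and a summed level of 4369 to 4527 FPKM in the deficient and 4792 to 5584 FPKM in the sufficient libraries, beside the Gimap median of -0.24. With libraries scaled to these 15 genes the Gimap median was -0.05 while that of all genes was 0.16, and with equal totals the 2 medians were -0.03 and 0.18. Gimap5 had a log2 fold change of 0.46 (limma adjusted p = 0.0528) under the scaling to T lineage genes and of 0.48 (adjusted p = 0.0593) with equal totals. No member passed under either, where 446 of 10623 genes tested and 371 of 10634 did, in that order. Macrophage markers summed to 400 to 763 FPKM in the deficient and 28.9 to 104 FPKM in the sufficient libraries, with 10 of 16 tested markers called higher and none of the 18 in the table at 0 in all libraries of a group. NK markers summed to 47.2 to 84.1 FPKM in the deficient and 10.8 to 20.8 FPKM in the sufficient libraries, with 3 of 7 called higher and Klre1 at 0 in all sufficient libraries. B cell markers summed to 11.6 to 15.3 FPKM in the deficient and 11.1 to 24.3 FPKM in the sufficient libraries, with 0 of 3 called. Dendritic cell markers summed to 162 to 165 FPKM in deficient and 134 to 145 FPKM in sufficient libraries, with 2 of 5 called higher. Bst2 held most of that sum, at 120.1 ± 1.52 in deficient and 120.5 ± 8.80 FPKM in sufficient libraries. The called genes were Siglech, at 4.32 ± 2.79 in deficient and 0.146 ± 0.126 FPKM in sufficient libraries, and Batf3, at 3.82 ± 1.62 in deficient and 0.499 ± 0.343 FPKM in sufficient libraries. Itgax was at 1.24 ± 0.0279 in deficient and 0.109 ± 0.0867 FPKM in sufficient libraries and Flt3 at 0.574 ± 0.0363 and 0.0556 ± 0.0776 FPKM, both below the filter. Neutrophil markers (5.47 to 40.3 in deficient and 0.350 to 39.8 FPKM in sufficient libraries) and erythroid markers (23.8 to 242 and 0.593 to 133 FPKM) overlapped between the groups. Both sums were highest in sufficient replicate 2 among sufficient libraries, and in replicates 2 and 4 among deficient ones. S100a8 was at 1.18 and 16.0 FPKM in the deficient libraries. It was at 0, 13.1 and 2.97 FPKM in sufficient replicates 1 and 3, 2 and 4. Hbb-b1 was at 9.64 and 116 FPKM in deficient and at 0.0806, 70.4 and 16.4 FPKM in sufficient libraries, in the same order. The Treg list had 0 of 6 higher and 2 lower, Lrrc32 (35.4 ± 3.98 FPKM in deficient, 127 ± 28.1 in sufficient libraries) and Ctla4 (111 ± 11.2 in deficient, 375 ± 102 in sufficient libraries), with limma adjusted p = 0.00982 and 0.0174. CD8 T markers summed to 10.6 to 11.2 in deficient and 11.6 to 15.1 FPKM in sufficient libraries, nearly all from Cd8b1, and 3 RNA quality genes to 552 to 650 and 376 to 527 FPKM (0 called in either list). The part of any other cells and of RNA quality in the Gimap values was not tested.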

How the data were processed

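RNA was measured in 8 samples, 4 Bcl11b-deficient and 4 Bcl11b-sufficient. The authors deposited FPKM values per gene. The submitters' processing notes name mm10, STAR 2.5.1 and, from the Cufflinks suite, Cuffdiff 2.2.1 with Cuffnorm 2.2.1, and for read quality Trim Galore 0.4.2, cutadapt 1.12 and FastQC. Their settings, the annotation and any scaling between libraries were not given there. Per the labels' protocols, a stranded total RNA kit and a HiSeq or MiSeq instrument were used, without saying which instrument for which sample. The table has 16 value columns, of which the 8 named for these samples were read and 8 were not used. FPKM are relative within a library, so abundant transcripts move all other values.

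Depth was estimated from 2172 genes with a single annotated transcript over 1500 bases, taking the most frequent low value of FPKM times length (less 150 bases) as 1 fragment. The estimate is approximate, and 75.5% to 82.0% of low values lay within 0.1 of a whole fragment. No count model was run and no counting interval is given. Columns of a group whose log ratios spread less than 1.5 times sampling noise at 150 to 500 fragments were averaged.

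Values were tested as log2(FPKM + 1) by limma (version 3.58.1, R 4.3.3), leaving out genes under a mean of 1 FPKM. The model held the group alone and used a trended prior variance. Fold changes, deficient minus sufficient, are on this scale and understate low genes. Tests were two-sided, with Benjamini-Hochberg adjustment over all 10614 genes and a threshold of 0.05. The fit was tested on simulated data, but no outcome of that test is given and no statement here rests on it. Alternatives were other pseudocounts, filters, scalings, empirical Bayes settings, unmerged columns, replicate blocks and leaving out samples.

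The members and lists were chosen with earlier results of these data known. Named genes were the members, Bcl11b, Foxp3, neighbouring genes, the 6 genes of most similar profile, and per partner list the called genes or the 2 of lowest adjusted p. Of the table's symbols 22694 were found in GENCODE M21. Snora61, Cd4, Cd8a, Cd8b1, Klre1, Bst2, Siglech, Batf3, Itgax, Flt3, Lrrc32, Ctla4 and Gm28053 were named after their values were seen. The same holds for Klrd1, Gzma, Klrk1, Eomes, Prf1, S100a8, Hbb-b1, Bcl2a1a and Bcl2a1d.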

Additional observations from a re-analysis of the deposited data

How the results depend on the processing

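The 8 member fold changes were recomputed under 22 alternatives, 11 of which leave out a sample or a merged library. Of 176 such values 166 kept their direction and their side of the threshold, 4 passed it and 6 turned sign. The turned values were those of Gimap1 (0.0687) and Gimap8 (0.165) with equal totals, Gimap1 (0.0463) and Gimap8 (0.143) with scaling to T lineage genes, and Gimap8 with quantile normalization (0.0390) and with sufficient replicates 1 and 3 left out (0.0124). Values that passed were Gimap5 (0.27) and Gimap6 (-0.38) with 8 separate columns and Gimap6 (-0.38) and Gimap7 (-0.53) with the replicate block on 8 columns, which gave 2 called members each. The member median moved to -0.0300 with equal totals and to -0.0319 with quantile normalization. Leaving out 1 sample or library gave 0 called members each time, a member median between -0.36 and -0.11, and fold changes between -0.24 and -0.08 for Gimap1, -0.34 and -0.09 for Gimap3, -0.47 and -0.06 for Gimap4, 0.20 and 0.34 for Gimap5, -0.46 and -0.25 for Gimap6, -0.84 and -0.27 for Gimap7, -0.13 and 0.01 for Gimap8, and -0.44 and -0.12 for Gimap9. Fits without a deficient library leave 1 deficient library, which is assumed to vary like the others.

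Among all genes 279 were called. The count was 182 with a pseudocount of 0.1, 99 with no filter, 446 with scaling to T lineage genes, 1851 with 8 separate columns and 1418 with the replicate block on them, and 8 to 297 on leaving out a sample or library. Leaving out sufficient replicate 2 gave 80, replicate 4 gave 133, and replicates 1 and 3 together 167. Leaving out deficient replicates 1 and 3 together gave 16, and 2 and 4 together 8. Of the calls 73.5% were higher in deficient cells, against 91.9% with equal totals, 91.9% with no filter and 89.7% with scaling to T lineage genes. The cause was not tested. The replicate numbers are not stated to pair samples, so pairing was not assumed. Deviations of same-numbered samples correlated at 0.03 to 0.13, and those of samples with different numbers at -0.11 to 0.13. With the block the count of all genes was 1418, against 1851 on the same columns, and a block of odd and even numbers on the merged libraries gave 283 and no member; 3 of 4 deficient samples correlated best with their own number. The alternatives for Ccr7 were added after seeing the data.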
